A study of Mus musculus with 6 samples.

Results

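Asparagine synthesis, serine synthesis and the folate-linked one-carbon cycle are represented here by 10 enzyme genes, chosen by name: Asns, Psat1, Phgdh, Psph, Shmt1, Shmt2, Mthfd1, Mthfd2, Mthfd1l and Aldh1l2. All 10 were found among the 52459 genes of the deposited count table. They were read in megakaryocytic-erythroid progenitors (MEPs), mouse marrow cells from which both platelet-making megakaryocytes and red cells arise. The groups were wild-type (WT) mice and mice without Tmprss6 (Tmprss6-/-, here KO), a liver protease whose loss raises hepcidin and causes iron deficiency. Each group had 3 libraries, and each library held sorted cells pooled from 3 mice. The cells were lineage-depleted and sorted as cKit-positive and CD150-positive cells without Sca, Fc gamma receptor, CD105 or CD41. Strain, age, treatment and whether replicates came from separate sorting days are not given by the labels, so p-values measure the spread between these pooled libraries.

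Serine is made from the glycolytic intermediate 3-phosphoglycerate by PHGDH, PSAT1 and PSPH in turn. SHMT1 in the cytosol and SHMT2 in mitochondria then split serine into glycine and a one-carbon unit carried on folate. In mitochondria MTHFD2, MTHFD1L and ALDH1L2 turn that unit into formate or carbon dioxide. In the cytosol MTHFD1 loads formate back onto folate for the making of purines and thymidylate. ASNS makes asparagine from aspartate and glutamine. Dividing blood progenitors draw on these routes for nucleotides. Asns, Psat1, Phgdh, Psph, Shmt2 and Mthfd2 are known targets of ATF4, the transcription factor of the integrated stress response, which in erythroid cells can be set off by the heme-regulated kinase HRI.

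ATF4 binds with C/EBP proteins at C/EBP-ATF response elements, so the start regions of the members were searched for letters of this element. RefSeq windows of build GRCm38.p6, which run from 250 bases before to 50 bases after an annotated start, were at hand for 9 of the 10 members (10 windows, as Psat1 has more than 1 start). The letters TGATGNAA, on either strand, occurred in 1 of the 10 windows, that of Asns, and in 3.97% of all 32841 windows of this length. The E-box letters CACGTG, where MYC can bind, occurred in 0 of the 10 windows and in 7.15% of all windows. The 30 bases just before the start are shown for Asns and Mthfd2, the members with the largest fold changes below, with the element's letters in capitals. The Asns stretch is chr6:7693210-7693239 and the Mthfd2 stretch chr6:83317605-83317634, both on the minus strand and written 5′ to 3′.
Asns: agccacaTGATGAAActtcccgcacgcgtt
Mthfd2: ctcaggggccaatgggcgcgcgggaggcgg
In Asns the match starts 23 bases before the RefSeq start. Both stretches lie inside the gene spans of the deposited table, which reach further upstream than these starts. A match of letters is a description and does not show binding, and a window without a match says only that these letters are not in it.

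Total counts ran from 13402209 to 22986837 per library. The 12 MEP and early erythroid markers, such as Gata1, Klf1 and Kit, were all detected, with a summed level of 8090 to 9470 CPM (counts scaled to a common library size) in WT and 7130 to 9600 CPM in KO. Car1 alone held 3970 to 6450 CPM of these sums. In edgeR 6 of the 12 were higher and 6 lower in KO. All KO libraries lay above WT for 2, against 2.27% of all genes tested. These were Tfrc (65.5 to 100 CPM in WT, 204 to 476 in KO) and Rhag (80.6 to 107 and 123 to 281 CPM). In the pairs 1 and 3, described below, 2 of the 12 passed as higher, against 0.258% of all genes. In DESeq2 1 passed as higher, against 4 of all 13453 genes. KO replicate 2 stood apart from the other 5 libraries through transcripts of other blood cells. All 12 neutrophil markers, all 12 eosinophil, basophil and mast cell markers, all 12 macrophage markers and all 11 globin and late erythroblast markers in the table were highest in that library. Their summed levels there were 3540, 8430, 2600 and 5630 CPM, against at most 400, 803, 245 and 614 CPM in any other library. Globin and late erythroblast markers were higher in the other KO libraries too, with summed levels of 614 and 597 CPM in KO replicates 1 and 3 against 309 to 428 CPM in WT. Lymphoid and plasma cell markers summed to 1450 CPM in KO replicate 2, against 330 to 952 CPM elsewhere. Tmprss6 itself had 0 to 5 counts per library in both groups, which checks no label. Libraries numbered 3 came from females, with 351 (WT) and 175 (KO) Xist counts, and those numbered 1 and 2 from males, with at least 872 Ddx3y counts. Replicate number and sex therefore cannot be told apart for replicate 3.

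Of the 10 members, 9 had counts in every library and passed the filter on low counts. In edgeR's quasi-likelihood test over the 6 libraries, 0 of these 9 passed an adjusted p of 0.05, as did 0 of all 13453 genes tested (0%). At an unadjusted p under 0.05, 2 members were higher in KO, Asns and Mthfd2, and 0 lower, against 1.53% of all genes higher. The same 2 members were those whose KO libraries all lay above the WT libraries, a pattern found in 2.27% of all genes tested. The remaining 7 members overlapped between genotypes. Without a block, DESeq2 called 0 members and 0.0446% of all genes. With and without quality weights, limma voom called 0 members and 0 of all 13453 genes. Each had 2 members higher at an unadjusted p under 0.05, against 2.31% of all genes in DESeq2, 0.513% in voom and 3.75% in voom with quality weights. In these bulk samples a change in the number of cells of a type and a change in RNA per cell cannot be told apart.

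**Figure D1:**
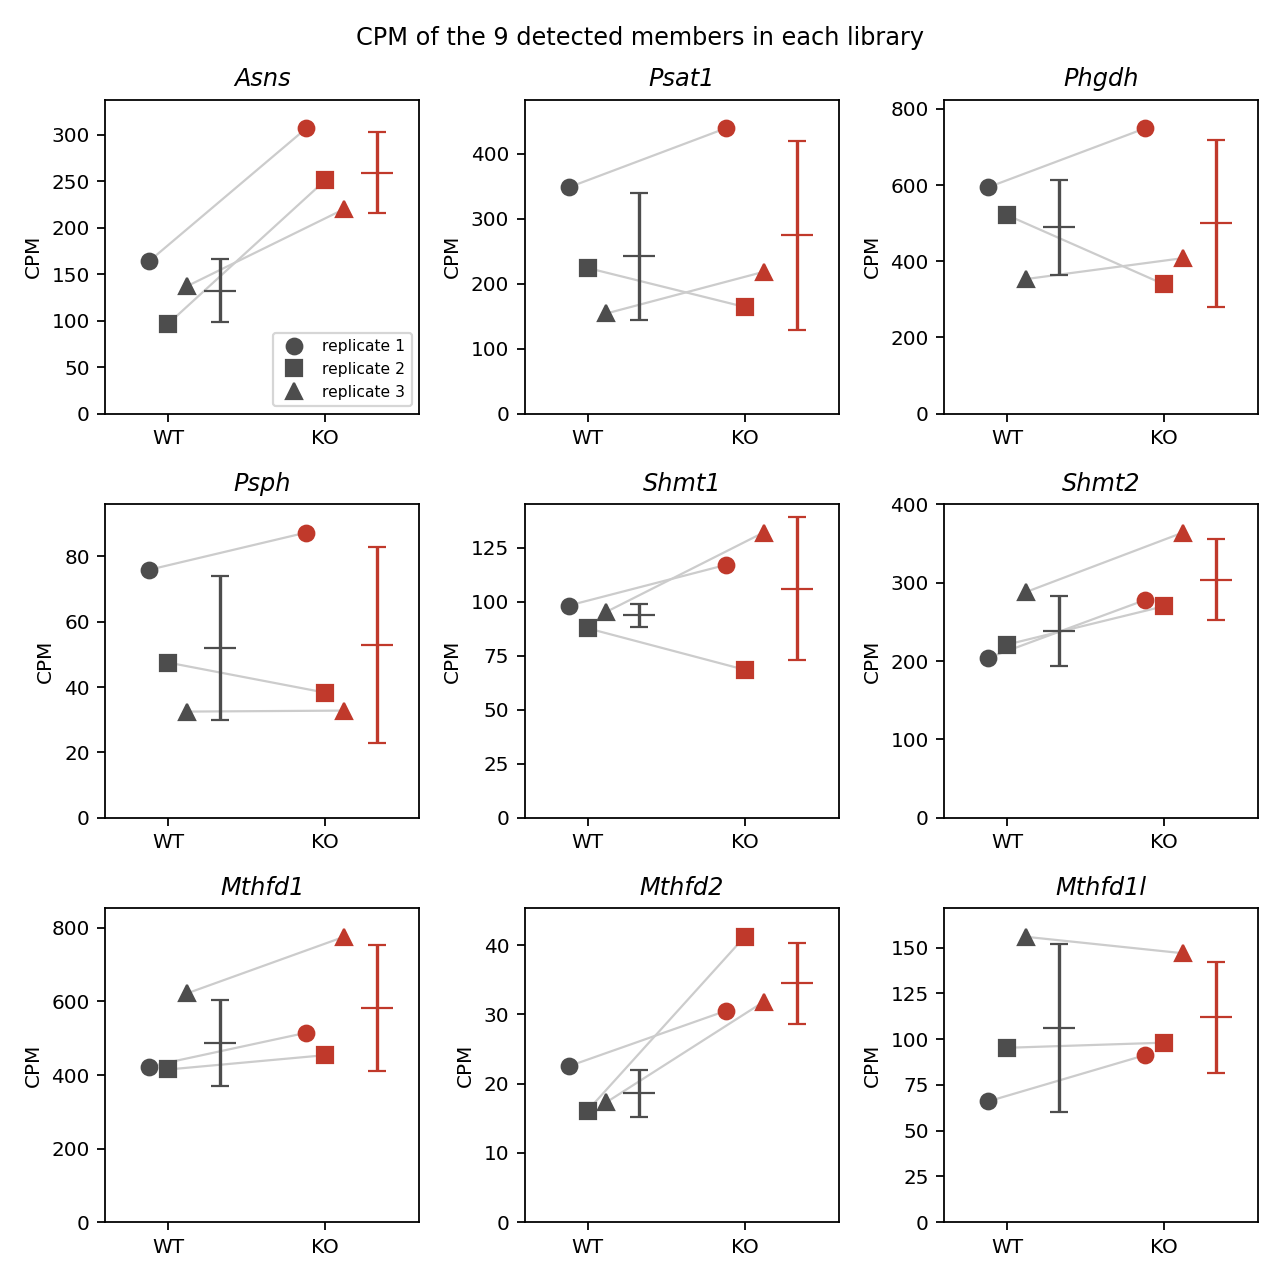
CPM of the 9 detected members (vertical axes, each from 0) in WT (grey) and KO (red) libraries; symbols are replicate numbers, light lines join libraries of the same number, and bars beside the points are the mean ± SD of 3 libraries. The KO libraries lie above all WT libraries for Asns and Mthfd2, and the groups overlap for the other 7 genes.

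Asns (ENSMUSG00000029752, chromosome 6, 7675169 to 7693254, GRCm38) was the member with the largest difference. Its level was 164, 96.5 and 137 CPM in WT replicates 1 to 3 and 307, 251 and 220 CPM in KO replicates 1 to 3. Every KO library lay above every WT library, and KO was the higher in 3 of 3 pairs of equal replicate number. The fold was 1.96 (log2 fold change 0.97, SE 0.30, edgeR adjusted p = 1.00). The replicate numbers were taken to pair the libraries, a reading from the data alone that is weak for number 2. Fits with the number as a block were therefore run too. With this block Asns had a log2 fold change of 0.99 (SE 0.175), and it passed in DESeq2 (adjusted p = 0.00109; 0.178% of all genes passed, 0.126% as higher) but not in edgeR (adjusted p = 0.995). The pairs 1 and 3 alone leave out KO replicate 2 and its partner, a choice that comes from earlier results of these data. There Asns rose 1.74-fold (log2 fold change 0.80, SE 0.11, edgeR adjusted p = 0.0018), the only member to pass, where 0.862% of 13572 genes passed and 0.258% did so as higher. With so few libraries left beside the block, SE and p of this fit lean on spread shared across genes. There 7 of the 9 members had an unadjusted p under 0.05, all as higher, against 5.45% of all genes, and adjusted p of the 8 others ran from 0.0788 (Psat1) to 0.805 (Psph). Without KO replicate 2 and with no block, its log2 fold change was 0.99, as large as with that library, although it did not pass (edgeR adjusted p = 1.00). The globin and late erythroblast markers were also higher in KO. Their sum was highest in KO replicate 2 (5630 CPM), and Asns in KO replicate 1. Outside KO replicate 2, the sum was 614 and 597 CPM in KO replicates 1 and 3. It was 428, 400 and 309 CPM in WT replicates 1 to 3. With KO replicate 2 set aside, KO replicate 1 was thus the highest library for both. All KO libraries lay above all WT libraries for 9 of these 11 markers, against 2.27% of all genes tested. With KO replicate 2 left out, 10 of the 11 were higher in KO, against 49.5% of all genes, with a median log2 fold change of 1.18. In that fit 0 passed in edgeR and 7 were higher at an unadjusted p under 0.05, against 31 of all 13703 genes. In the pairs 1 and 3, 5 of them passed as higher, against 0.258% of all genes. The part of these markers in the differences of Asns and Mthfd2 was not tested.

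None of the serine synthesis genes passed the test, and in both genotypes the library numbered 1 was the highest for all 3 of them. Phgdh (ENSMUSG00000053398, chromosome 3, 98313170 to 98339990), the entry enzyme of the route, was at 594, 521 and 353 CPM in WT replicates 1 to 3 and at 749, 339 and 408 CPM in KO replicates 1 to 3. The genotypes overlapped, with the lowest library in KO. The log2 fold change was 0.03 (SE 0.39, edgeR adjusted p = 1.00). Psat1 (ENSMUSG00000024640, chromosome 19, 15904678 to 15947337), the aminotransferase of the next step, was at 348, 224 and 154 CPM in WT against 439, 164 and 218 CPM in KO. Its highest libraries were again those numbered 1, and its log2 fold change was 0.18 (SE 0.46, edgeR adjusted p = 1.00). Psph (ENSMUSG00000029446, chromosome 5, 129765558 to 129787449), the phosphatase that releases serine, was at 75.9, 47.5 and 32.5 CPM in WT against 87.3, 38.3 and 32.8 CPM in KO. This gene too was highest in both libraries numbered 1, and its log2 fold change came to 0.02 (SE 0.47, edgeR adjusted p = 1.00). Of its exon bases, 10.4% are shared with the abundant chaperonin gene Cct6a on the opposite strand. The libraries do not mark the strand, so part of its count is uncertain.

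The serine synthesis genes were higher in KO in pairs 1 and 3 and lower in pair 2. In pair 1 the log2 differences of KO over WT were 0.34 for Phgdh, 0.34 for Psat1 and 0.20 for Psph. In pair 2 they were -0.62, -0.45 and -0.31, with KO replicate 2 the library that held transcripts of other cells, whose part in these values was not tested. In pair 3 they were 0.21, 0.50 and 0.011. Without KO replicate 2 the log2 fold changes over the other 5 libraries were 0.24, 0.44 and 0.21, without KO replicate 1 they were -0.39, -0.34 and -0.56, and without WT replicate 3 they were -0.16, -0.058 and -0.22, none past the threshold. Psph also changed sign without WT replicate 2, to -0.037. With libraries scaled by their totals alone, the values for Phgdh and Psph changed sign, to -0.008 and -0.009. The log2 CPM of the 3 genes followed each other closely over the 6 libraries, with Pearson r of 0.965 for Phgdh and Psat1, 0.931 for Phgdh and Psph and 0.933 for Psat1 and Psph, given as a description of libraries that share depth and cell content. Leaving out KO replicate 2, these r were 0.958, 0.963 and 0.944. For Asns the r with these genes was 0.155 to 0.347 over the 6 libraries and 0.398 to 0.615 without KO replicate 2.

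**Figure D2:**
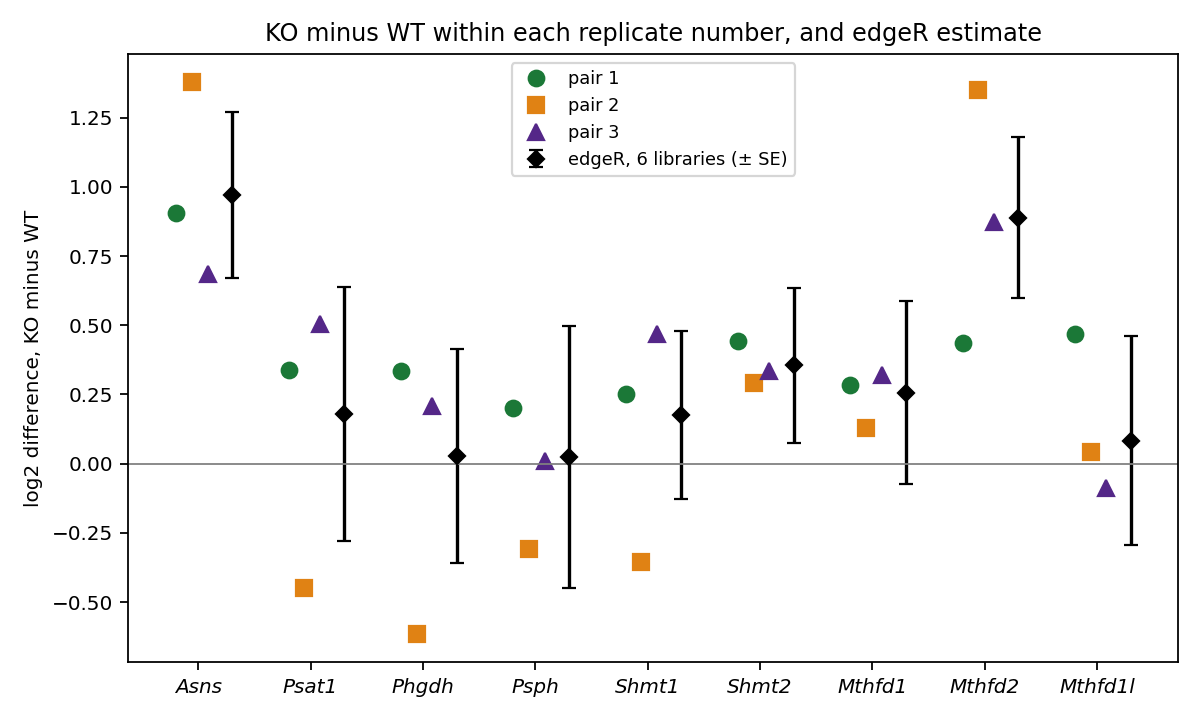
Log2 difference of KO minus WT (vertical axis) for each detected member within replicate numbers 1, 2 and 3 (coloured symbols), beside the edgeR log2 fold change over the 6 libraries ± SE (black). Asns, Mthfd2, Shmt2 and Mthfd1 lie above 0 in all 3 pairs, and Psat1, Phgdh, Psph and Shmt1 lie below 0 in pair 2.

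The hydroxymethyltransferases, which pass a carbon of serine to folate, did not pass the test in either compartment. The mitochondrial Shmt2 (ENSMUSG00000025403, chromosome 10, 127517123 to 127522444) was at 204, 221 and 288 CPM in WT against 278, 270 and 364 CPM in KO. WT replicate 3 lay above KO replicates 1 and 2, so the groups overlapped, while KO was the higher in 3 of 3 pairs by 0.29 to 0.45 log2 units. Its log2 fold change was 0.36 (SE 0.28, edgeR adjusted p = 1.00). The cytosolic Shmt1 (ENSMUSG00000020534, chromosome 11, 60788104 to 60811718) was at 98.2, 87.7 and 95.3 CPM in WT against 117, 68.5 and 132 CPM in KO. The KO libraries lay on both sides of the WT libraries, with KO replicate 2 the lowest of all. Its log2 fold change was 0.18 (SE 0.30, edgeR adjusted p = 1.00). Both other KO libraries lay above all WT libraries, and without KO replicate 2 the log2 fold change was 0.41 (edgeR adjusted p = 1.00), whereas without KO replicate 3 it was -0.02. Per kilobase of exon, Shmt2 stood at 2.60 to 3.78 times the level of Shmt1 in WT and 2.97 to 4.93 times in KO, with KO replicate 2 the highest.

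Mthfd2 (ENSMUSG00000005667, chromosome 6, 83305691 to 83325908), the mitochondrial dehydrogenase and cyclohydrolase that many adult tissues hardly express and dividing cells do, had the second largest difference among members. It was at 22.5, 16.1 and 17.3 CPM in WT replicates 1 to 3 and 30.5, 41.2 and 31.8 CPM in KO replicates 1 to 3. All KO libraries lay above all WT libraries, KO replicate 2 being the highest, and KO was the higher in 3 of 3 pairs. The fold was 1.85 (log2 fold change 0.89, SE 0.29, edgeR adjusted p = 1.00). Without KO replicate 2 the log2 fold change was 0.74, and in the pairs 1 and 3 it was 0.65 (SE 0.20, edgeR adjusted p = 0.161), so no setting gave a call. The lowest adjusted p over the 16 alternatives was this 0.161. Its paralog Mthfd2l, which serves the same mitochondrial step, was at 30.5 ± 5.62 CPM in WT against 28.4 ± 11.6 CPM in KO (SD, n = 3), lowest in KO replicate 2 at 17.0 CPM. The ratio of Mthfd2 to Mthfd2l per kilobase of exon was 1.09 to 1.24 in WT and 1.44, 4.62 and 2.17 in KO replicates 1 to 3, without overlap between genotypes. That of Mthfd2 to Mthfd1 overlapped, at 0.0676, 0.0493 and 0.0354 in WT and 0.0753, 0.115 and 0.0522 in KO.

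The other mitochondrial and cytosolic folate enzymes overlapped between genotypes. Mthfd1 (ENSMUSG00000021048, chromosome 12, 76255298 to 76319803), the trifunctional cytosolic enzyme that interconverts folate-bound one-carbon units, was at 423, 415 and 622 CPM in WT against 515, 454 and 776 CPM in KO. KO was the higher in 3 of 3 pairs by 0.13 to 0.32 log2 units, but WT replicate 3 exceeded KO replicates 1 and 2. Its log2 fold change was 0.26 (SE 0.33, edgeR adjusted p = 1.00), with 0.41 without KO replicate 2, 0.48 without WT replicate 3 and -0.013 without KO replicate 3. Mthfd1l (ENSMUSG00000040675, chromosome 10, 3973118 to 4167081), which releases formate in mitochondria, was at 66.0, 95.3 and 156 CPM in WT against 91.3, 98.1 and 147 CPM in KO, and the log2 fold change came to 0.083 (SE 0.38, edgeR adjusted p = 1.00). For Mthfd1l it was 0.167 without KO replicate 2 and ran from -0.17, without WT replicate 1 or KO replicate 3, to 0.48, without WT replicate 3. Mthfd1, Mthfd1l and Shmt2 were highest in replicate 3 of each genotype, and in WT the serine synthesis genes were lowest in that library. Aldh1l2 (ENSMUSG00000020256, chromosome 10, 83487450 to 83534140), which turns formyl-folate into carbon dioxide in mitochondria, had 0 counts in all 6 libraries. At this depth a count of 0 allows up to 3 counts, or 0.131 to 0.224 CPM, for counting error only. Of its exon bases, 14.1% are shared with D10Wsu102e on the opposite strand.

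Of the 9 detected members, 4 were higher in KO in 3 of 3 pairs (Asns, Mthfd2, Shmt2 and Mthfd1) and 5 in 2 of 3, while 11.6% of all genes tested were higher in 3 of 3. The plot of deviations shows that the members divide by how they vary over libraries. Asns and Mthfd2 were below their own mean in every WT library and above it in every KO library (r of 0.894 with each other), Phgdh, Psat1 and Psph peaked in replicate 1, and Shmt2, Mthfd1 and Mthfd1l peaked in replicate 3, with an r of 0.922 between Shmt2 and Mthfd1. The r of Shmt1 was 0.232 with Asns and -0.0304 with Mthfd2 over the 6 libraries, and 0.847 and 0.952 without KO replicate 2. These r values describe 6 or 5 libraries and carry no test.

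**Figure D3:**
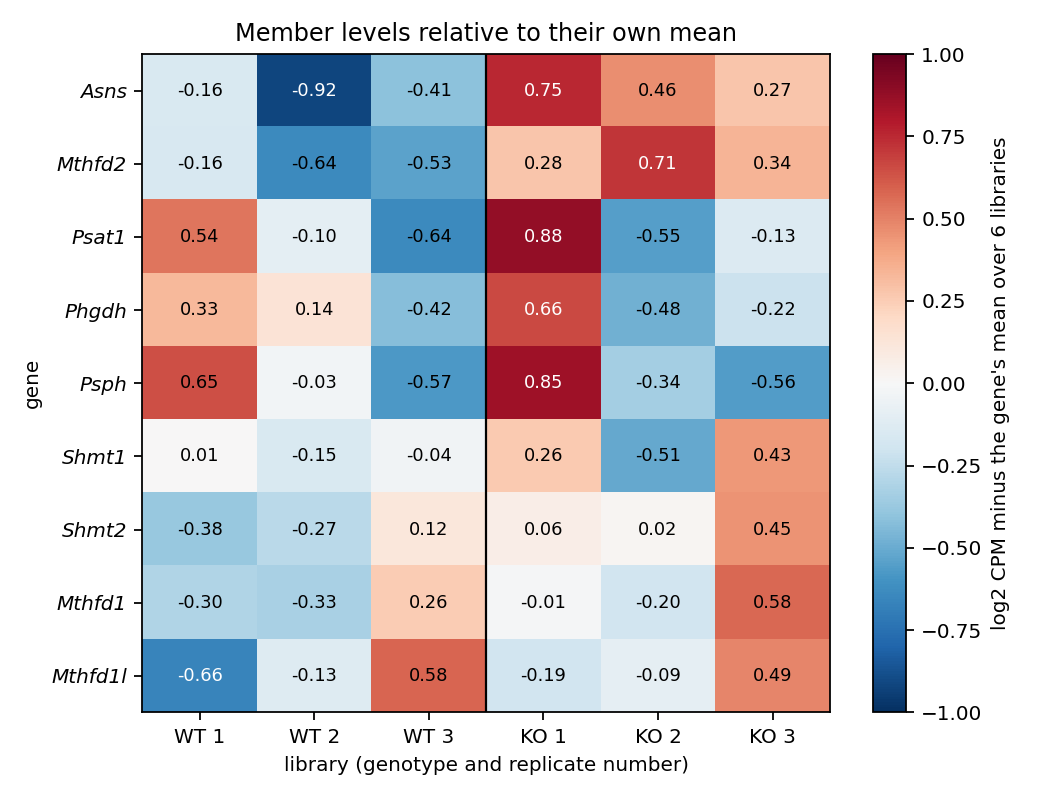
Log2 CPM of each detected member minus its mean over the 6 libraries (colour and printed value; red above, blue below), with genes in rows and libraries in columns, WT left and KO right of the line. Asns and Mthfd2 are below their mean in all WT and above it in all KO libraries, and Phgdh, Psat1 and Psph are highest in WT 1 and KO 1.

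Levels of different genes were compared per kilobase of exon, the union of exons in GENCODE M21. In WT, Phgdh was highest with 197 ± 49.7 CPM per kilobase (SD, n = 3), at the 98.1th percentile of the 13443 tested genes that had a length. Mthfd1 followed with 110 ± 26.3, Shmt2 with 76.5 ± 14.3, Psat1 with 56.8 ± 23.1 and Asns with 48.4 ± 12.3 CPM per kilobase. Shmt1 (24.1 ± 1.39), Mthfd1l (23.9 ± 10.4), Psph (12 ± 5.09) and Mthfd2 (5.33 ± 0.974) were lower. In this order the WT libraries of 4 pairs of neighbours overlapped, Shmt2 with Psat1, Psat1 with Asns, Shmt1 with Mthfd1l and Mthfd1l with Psph. In KO, the mean of Asns was 94.8 ± 16.0 CPM per kilobase, above that of Psat1 at 64.3 ± 34.3. Their KO libraries overlapped, with Psat1 at 103 in KO replicate 1 and Asns at 91.7 and 80.6 in KO replicates 2 and 3. Mthfd2 stayed the lowest detected member at 9.89 ± 1.67. Within the serine route, Phgdh stood at 13.6 to 21.7 times the level of Psph in all 6 libraries. The ratio of Asns to Phgdh was 0.25, 0.168 and 0.353 in WT and 0.372, 0.672 and 0.491 in KO, without overlap. That of Asns to Psat1 overlapped, at 0.732, 0.671 and 1.38 in WT and 1.09, 2.38 and 1.57 in KO.

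**Figure D4:**
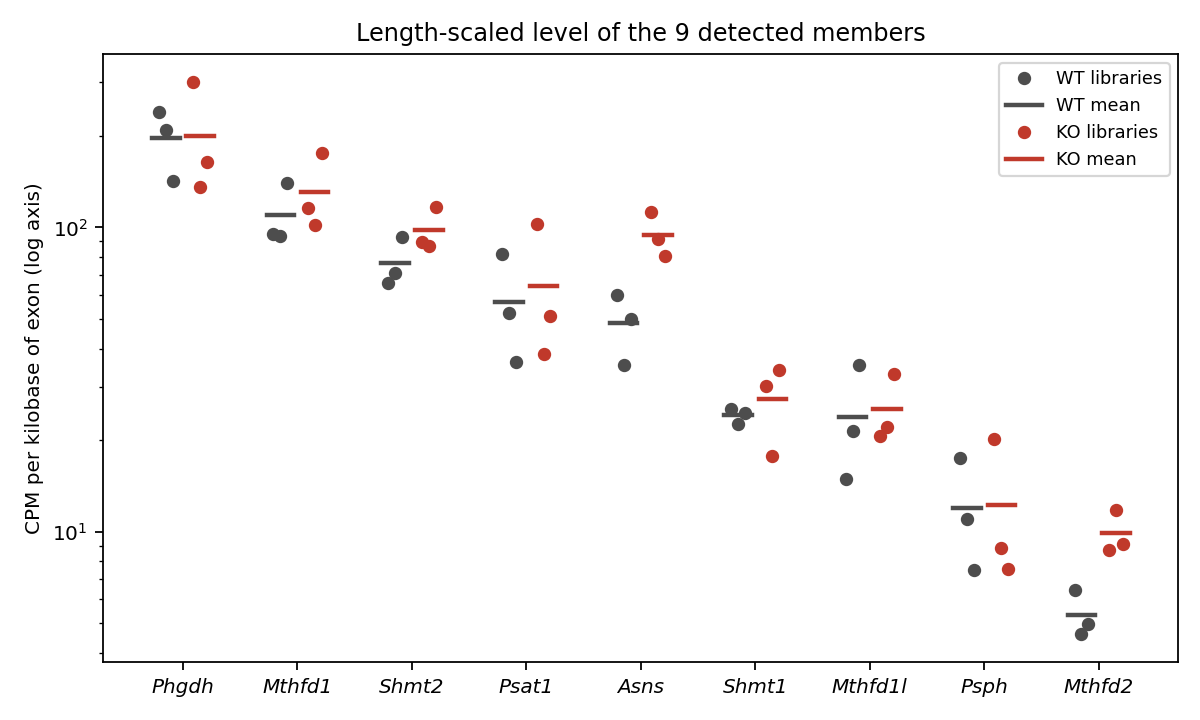
CPM per kilobase of exon (vertical log axis) of the 9 detected members, ordered by their WT mean; points are libraries of WT (grey) and KO (red), and lines are means of 3 libraries. Phgdh is highest in both genotypes, and Asns moves from 48.4 in WT to 94.8 in KO.

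Genes that surround these enzymes in serine, glycine and folate metabolism showed no common direction, and the larger side depended on KO replicate 2. Of 38 such genes, 29 were tested, 12 were higher and 17 lower in KO, the median log2 fold change was -0.024, and 0 passed in edgeR or had an unadjusted p under 0.05. Over all genes tested, 49.3% were higher and the median was -0.005. The balance of the 29 turned without KO replicate 2, to 18 higher and 11 lower with a median of 0.066, where 49.5% of all genes were higher. The balance also turned in the pairs 1 and 3, with 18 higher, 11 lower and a median of 0.029, where 48.5% of all genes were higher. In those pairs 3 had an unadjusted p under 0.05, all higher, against 5.45% of all genes. None passed in either fit. Among those of smallest p were Srr, serine racemase, at 8.93 ± 1.81 CPM in WT against 6.14 ± 0.704 in KO (SD, n = 3), and Slc25a32, a mitochondrial folate carrier, at 53.5 ± 13.2 and 43.2 ± 8.22 CPM. The glycine cleavage system, which splits glycine into a one-carbon unit in mitochondria, is named here after its values were seen. Its subunit genes Gldc and Amt had group means of at most 0.103 CPM, whereas Gcsh and Dld were at 155 ± 72.5 and 234 ± 39.6 CPM in WT.

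None of the users of one-carbon units in purine and thymidylate synthesis passed the test. All 12 were tested, 10 were higher and 2 lower, with a median log2 fold change of 0.089. Over all genes tested, 49.3% were higher with a median of -0.005. Of the 12, 0 passed in edgeR or had an unadjusted p under 0.05. Without KO replicate 2, 11 of the 12 were higher, against 49.5% of all genes, and the median was 0.246. In the pairs 1 and 3 all 12 were higher, against 48.5% of all genes, with a median of 0.206. There 0 passed, against 0.862% of all genes. Of these 12, 5 had an unadjusted p under 0.05 there, against 5.45% of all genes as higher. The 3 of smallest p were Gmps, which makes GMP, at 252 ± 27.7 and 309 ± 65.4 CPM, Pfas, a step of purine ring assembly, at 37.0 ± 5.22 and 45.1 ± 6.72 CPM, and Impdh2, which commits IMP to guanine nucleotides, at 195 ± 4.82 and 224 ± 50.4 CPM (WT and KO, SD, n = 3). The groups overlapped for each. Of 25 genes of DNA replication and S phase, 24 were higher in KO, against 49.3% of all genes tested. Their median was 0.36, with 0 past the threshold in edgeR and 1 higher at an unadjusted p under 0.05, against 1.53% of all genes. In the pairs 1 and 3, 2 of them passed as higher, against 0.258% of all genes. There 13 were higher at an unadjusted p under 0.05, against 5.45%. In DESeq2 with the block 1 passed as higher, against 0.126% of all genes. The summed level of the 25 genes was 5320 to 6570 CPM in WT against 6510 to 8300 CPM in KO. Their part in the differences of Asns and Mthfd2 was not tested.

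Other genes of the ATF4 response were mixed, with more higher than lower in KO. Of 43 listed genes outside the members, 37 were tested, and 27 were higher and 10 lower in KO. Over all genes tested, 49.3% were higher. The median log2 fold change was 0.25 and 0 passed in edgeR, with 2 higher at an unadjusted p under 0.05, against 1.53% of all genes. The 27 held every aminoacyl-tRNA synthetase of the list. Among the 10 were Atf3 (1.34 and 0.495 CPM in WT and KO, log2 fold change -1.42) and Ddit3 (33.9 and 30.1 CPM, -0.17). Trib3, a stress-induced pseudokinase, was at 0.356 to 0.620 CPM in WT against 1.28, 23.5 and 2.28 CPM in KO replicates 1 to 3. Slc6a9, a glycine transporter, was at 1.59, 23.8 and 2.28 CPM in KO, and at most 1.45 CPM in WT. Both were far highest in KO replicate 2. Without it their log2 fold changes went from 4.08 to 1.74 and from 2.92 to 0.67. Cars, the cysteinyl-tRNA synthetase, was at 60.9 ± 10.1 and 86.9 ± 7.39 CPM (SD, n = 3), with all KO libraries above WT and a log2 fold change of 0.51. In the pairs 1 and 3, 26 genes of this list were higher, against 48.5% of all genes, and 12 lower. At an unadjusted p under 0.05 there were 9 higher and 3 lower, against 739 and 1050 of all 13572 genes. In these pairs 1 gene of the list passed, and as lower, as did 0.604% of all genes. This was Ppp1r15a, the phosphatase subunit that ends the response, at -0.79 on the log2 scale (edgeR adjusted p = 0.00183), named after its values were seen. It was at 241, 167 and 201 CPM in WT replicates 1 to 3 and at 145, 352 and 112 CPM in KO replicates 1 to 3, so that KO replicate 2 was the highest library and its own genotype's others the lowest. Atf4 transcripts were at 92.1 ± 28.4 CPM in WT against 89.3 ± 30.4 in KO, and Eif2ak1, the gene of HRI, at 103 ± 49.0 and 130 ± 49.6 CPM, neither past the threshold. ATF4 is known to be controlled mainly in translation, which these counts do not measure.

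**Figure D5:**
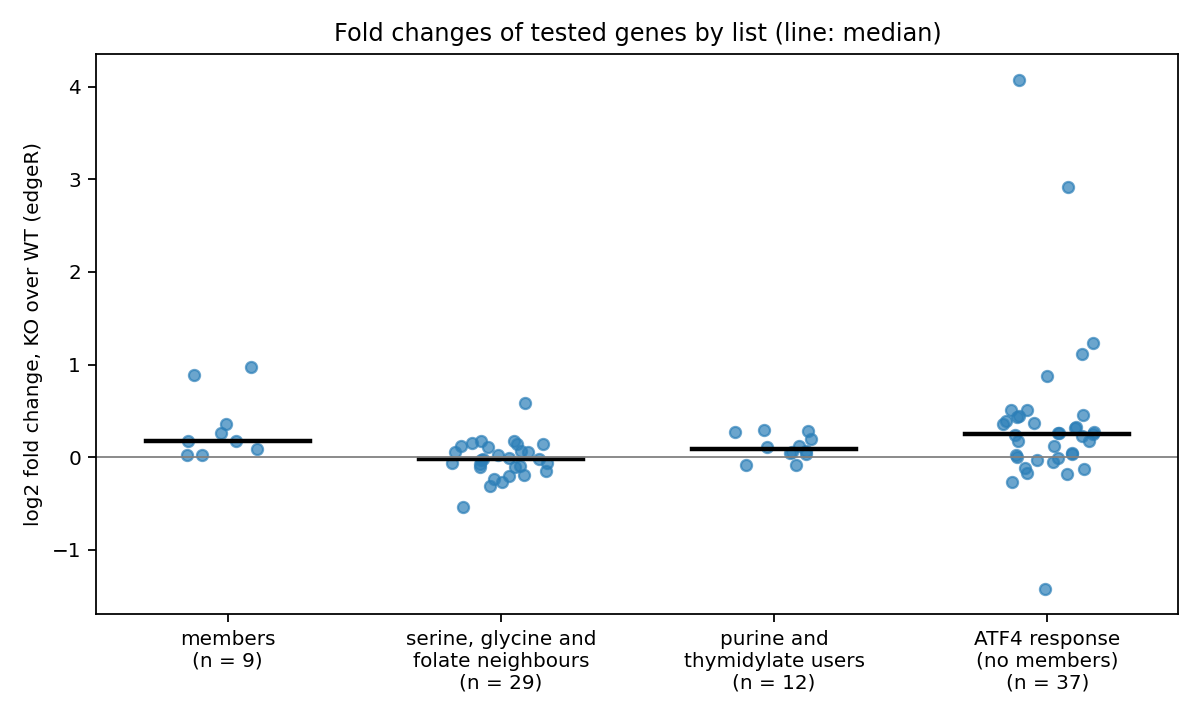
Log2 fold change of KO over WT (edgeR, 6 libraries; vertical axis) of each tested gene in the 4 lists, with the median as a line. The medians are 0.18 for the 9 members, -0.024 for the 29 neighbours, 0.089 for the 12 purine and thymidylate genes and 0.25 for the 37 other ATF4 response genes, and the medians of the fit without KO replicate 2, which is not drawn, are 0.41, 0.066, 0.246 and 0.225.

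Likeness to Asns in log2 CPM over the 6 libraries was sought among 9509 tested genes of at least 5 CPM on average. Members and predicted gene models (names with Gm and a number, or with Rik) were left out. The 5 most alike were Arhgef25, Slbp, Tubg1, Trmt2a and Slc38a5, with Pearson r of 0.968 to 0.984. Slbp, which binds the stem-loop of histone transcripts, was at 227 to 324 CPM in WT against 330 to 430 CPM in KO. Slc38a5, an importer of neutral amino acids that include asparagine, serine and glutamine, was at 115 to 150 CPM in WT against 190 to 215 CPM in KO. Tubg1, gamma-tubulin, was at 52.6 to 60.1 and 71.2 to 82.3 CPM, and Trmt2a, a tRNA methyltransferase, at 126 to 144 and 159 to 177 CPM. In each of these the KO libraries lay above WT, a pattern that the choice by likeness to Asns favours.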

How the data were processed

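Per the labels' protocols, sorted MEP RNA went through SMART-Seq v4 and Nextera XT kits, neither of which marks the strand. The authors deposited read counts per Ensembl gene, whole numbers with no scaling, for 3 WT and 3 KO libraries. Per the submitters' processing notes, FastQC 0.11.5, STAR 2.5.3a and edgeR were used, with GRCm38.p3 and GRCh38.p3 as named builds. Read counter, strand setting and annotation are not given in the sources at hand, so counts of overlapping genes and paralogs are uncertain. Coordinates are those of the deposited table and were the same in GENCODE M21 (GRCm38) for all 10 members. No row lacked a gene name.

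The filter was filterByExpr in edgeR 4.0.16 (minimum count 10, minimum total 15), which kept 13453 of 52459 genes. Scaling was by TMM. Genotypes were compared by the two-sided quasi-likelihood test (glmQLFit, glmQLFTest), adjusted by Benjamini-Hochberg over all genes tested, at a threshold of 0.05. CPM use TMM-scaled library sizes, log2 CPM add a prior count of 2, and SE is that of the log2 fold change. Total counts of 13402209 to 22986837 put a floor of 3 counts at 0.131 to 0.224 CPM. Alternatives were DESeq2 1.42.0, limma 3.58.1 voom, other scalings and filters, a replicate block, and leaving out each library, in R 4.3.3. Of these fits, only those of edgeR with no block, with the block and with the block on the pairs 1 and 3 were tested on simulated counts.

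Replicate numbers 1, 2 and 3 occur in both genotypes. Deviations from the genotype mean in log2 CPM correlated at 0.532, 0.161 and 0.633 across genes for the numbers 1, 2 and 3, each over 0.1, so the numbers were taken to pair the libraries. The labels give no meaning to the numbers, so this pairing is read from the data alone. For number 2 it is weak. In log2 CPM, WT replicate 2 had an r of 0.918 with KO replicate 2, and of 0.958 and 0.954 with KO replicates 1 and 3. Number 3 is also the female pair, so its r cannot be told apart from sex.

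The members, the lists of other genes and the choice of the pairs 1 and 3 were made with earlier results of these data known. Named were all 10 members, the 3 genes of smallest p in each of 3 further lists, Atf4, Eif2ak1 and the 5 genes most like Asns, except that 1 gene of a list is not reported here and counts only in its list's summary; other names were chosen after their values were seen. Start-region sequences are from RefSeq (GRCm38.p6).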

Additional observations from a re-analysis of the deposited data

How the results depend on the processing

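Over the 16 alternatives, Asns, Mthfd2 and Shmt2 kept a higher level in KO in each, with log2 fold changes of 0.79 to 1.24, 0.65 to 1.05 and 0.20 to 0.52. The cause of the changes below was not tested. The number of called members went from 0 to 1, Asns, in the replicate block on the pairs 1 and 3 and in DESeq2 with the block. Called over all genes were 117 in the block on the pairs 1 and 3, 6 in DESeq2 and 24 in DESeq2 with the block, and in the block on those pairs 1 other ATF4 response gene passed. The replicate block on all 6 libraries in edgeR called 0 genes and changed no call.

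Directions reversed for genes with small fold changes, none of them past the threshold. Psat1 gave -0.015 in voom with quality weights. Phgdh gave -0.022 with the block, -0.008 without scaling, -0.021 in DESeq2 with the block, -0.023 in voom and -0.27 with quality weights. Psph gave -0.031, -0.009, -0.029, -0.038 and -0.22 under the same settings. Leaving out 1 library at a time gave -0.34 to 0.53 for Psat1, -0.39 to 0.24 for Phgdh, -0.56 to 0.40 for Psph, -0.02 to 0.41 for Shmt1, -0.013 to 0.48 for Mthfd1, -0.17 to 0.48 for Mthfd1l and -0.34 to 0.16 for Atf4.

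With the longest transcript in place of the exon union, levels in CPM per kilobase became, for WT and KO, 65.6 and 129 for Asns, 92.3 and 105 for Psat1, 32.8 and 37.0 for Shmt1, 104 and 133 for Shmt2, 150 and 179 for Mthfd1 and 8.92 and 16.5 for Mthfd2. For WT they became 258 for Phgdh and 18.1 for Psph. Depth limits Aldh1l2 alone among the members, as it had no counts.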
